A study of Homo sapiens with 18 samples.

Results

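Keratins are the intermediate filament proteins of epithelial cells. The keratin genes were taken here as the protein-coding genes named KRT plus a number and an optional letter A to C in GENCODE release 44, without the keratin-associated proteins. This rule found 55 of 60849 gene identifiers, 29 of them type I and 26 type II. On GRCh38, 27 lay on chromosome 12 between 52168996 and 52952906 and 28 on chromosome 17 between 40654665 and 41624842. All type I genes lay in the chromosome 17 cluster except KRT18, which sits beside KRT8 on chromosome 12.

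Counts per gene were measured in H1975 (NCI-H1975) and HCC827, both EGFR-mutant lung adenocarcinoma lines of human origin. Cells of 3 samples per line were grown independently to near confluency in RPMI 1640 medium with fetal calf serum and antibiotics, then dissociated and frozen before extraction, and the labels name no drug or genetic change. RNA of each sample, with synthetic sequin RNAs added, was sequenced on Illumina, Oxford Nanopore (ONT) and PacBio instruments, so that 18 libraries formed 6 groups of 3. A directional kit with 11 PCR cycles turned 3.75 ng of mRNA into Illumina libraries, ONT cDNA libraries took 1.5 ng of mRNA and 14 cycles, and for PacBio total RNA went into size-selected Iso-Seq libraries with 12 cycles. Each line is a single established line, so a difference between them belongs to these 2 lines and to no wider class of tumour.

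Gene counts per library ranged from 81467393 to 116497461 in ONT and from 33362018 to 40200473 in Illumina, except for Illumina HCC827 replicate 2 with 10020699. PacBio libraries held 37795 to 54339 counts, and there 2 pairs, replicates 2 and 3 of H1975 and replicates 1 and 2 of HCC827, differed by less than the sampling noise (mean chi-square per gene 0.550 and 0.671). PacBio values are therefore given as counts per library, and the number of keratins called there was the same when each close pair was counted as 1 sample. The corresponding values of PacBio HCC827 replicate 3 against replicates 1 and 2 were 4.41 and 4.88. As a check of the labelled tissue, all 8 lung adenocarcinoma epithelial markers on the list were detected in both lines by Illumina, with a summed level of 747 to 804 CPM (counts per library scaled to the effective library size) in H1975 and 1677 to 1962 in HCC827. In H1975 most of this sum was EPCAM, CDH1 and CLDN4, with means of 217, 304 and 220 CPM. NKX2-1 and CLDN3 had means of 25.2 and 8.35 CPM there, and NAPSA and SFTPB of 1.74 and 1.40. SFTA2 had 5 counts over the H1975 libraries (mean 0.0387 CPM). Squamous markers summed to 110 to 120 CPM in H1975 and 81.7 to 89.3 in HCC827, but the members went both ways. Mean Illumina CPM in H1975 and HCC827 was 69.4 and 11.6 for TP63 and 33.7 and 5.41 for SERPINB5. For SOX2 it was 10.1 and 63.5 and for DSC3 0.394 and 5.62, while DSG3 and PKP1 reached at most 0.109 CPM. In ONT the squamous sum was 14.3 to 15.0 CPM in H1975 and 17.5 to 26.6 in HCC827. Of 6 fibroblast markers none was at 0 counts in either line, and their sum was 67.1 to 79.5 CPM in H1975 and 0.305 to 0.691 in HCC827. Nearly all of the H1975 sum was COL1A2, a collagen gene, at 63.4 to 75.2 CPM, with 1 count in HCC827, while DCN, LUM and THY1 had means of 0.0234, 0.192 and 0.0644 CPM in H1975. The 5 hematopoietic markers summed to 5.95 to 6.73 and 0.933 to 1.30 CPM, with CD3E at 0 in HCC827, and the 4 endothelial markers to 6.46 to 7.63 and 3.38 to 4.13 CPM. The part of these genes in a keratin difference was not tested. In bulk samples fewer cells of a type and less RNA per cell cannot be told apart.

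A keratin filament is built from pairs of 1 type I and 1 type II chain, and an unpaired chain is degraded, so the types are usually made together. Simple epithelia such as the lung lining use KRT8 and KRT18 with KRT7 and KRT19, stratified epithelia use KRT5 and KRT14 in their basal layer and switch to other pairs as cells move up, and hair and nail have their own set. KRT7 and KRT20 are read together in pathology as tissue-of-origin markers, and lung adenocarcinoma is typically positive for KRT7 and negative for KRT20.

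The comparison asks how the keratins differ between the lines on each platform. Most tested keratins were higher in HCC827. In Illumina 22 members had enough counts to be tested, and 16 were higher, 3 lower and 3 not called at an adjusted p below 0.05 (edgeR quasi-likelihood test, adjusted over all genes). The lines differ widely, and 74.1% of all genes tested in Illumina were called, 36.1% as higher and 38.0% as lower. In ONT 31 keratins were tested, with 20 higher, 4 lower and 7 not called, against 62.7% of all genes called (31.1% higher and 31.6% lower). The median log2 fold of the tested keratins, HCC827 over H1975, was 1.58 in Illumina and 1.17 in ONT, beside -0.04 and -0.02 over all genes. All 3 HCC827 libraries lay above all 3 of H1975 for 17 tested keratins in Illumina and below them for 3, against 36.9% and 39.9% of all genes, and in ONT for 21 and 4, against 33.2% and 35.9%. A member high in only 1 line could be tested because of that line, so these counts describe the tested members and not the family. Scaling to library totals alone moved the median of all genes to -0.38 in Illumina and -0.57 in ONT and turned the split of all calls to 6503 higher and 12773 lower in Illumina and to 4333 and 13787 in ONT. With that scaling 14 keratins were still higher and 3 lower in Illumina, and 15 and 5 in ONT.

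Of 29 type I genes 7 were tested in Illumina, with 4 higher and 2 lower, and of 26 type II genes 15 were tested, with 12 higher and 1 lower. The Illumina shares over all genes were 36.1% higher and 38.0% lower. Of 21 keratins tested in both Illumina and ONT, 13 were higher on both platforms, 2 were lower on both and 1 was called in opposite directions. The platforms share RNA samples, so these are not independent repeats. The share of all genes called alike on both platforms was not computed, so these counts describe only the keratins tested. In sum 46 members had at least 1 count in Illumina, 53 in ONT and 11 in PacBio, and only KRT26, a hair root sheath keratin, had none anywhere.

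**Figure D1:**
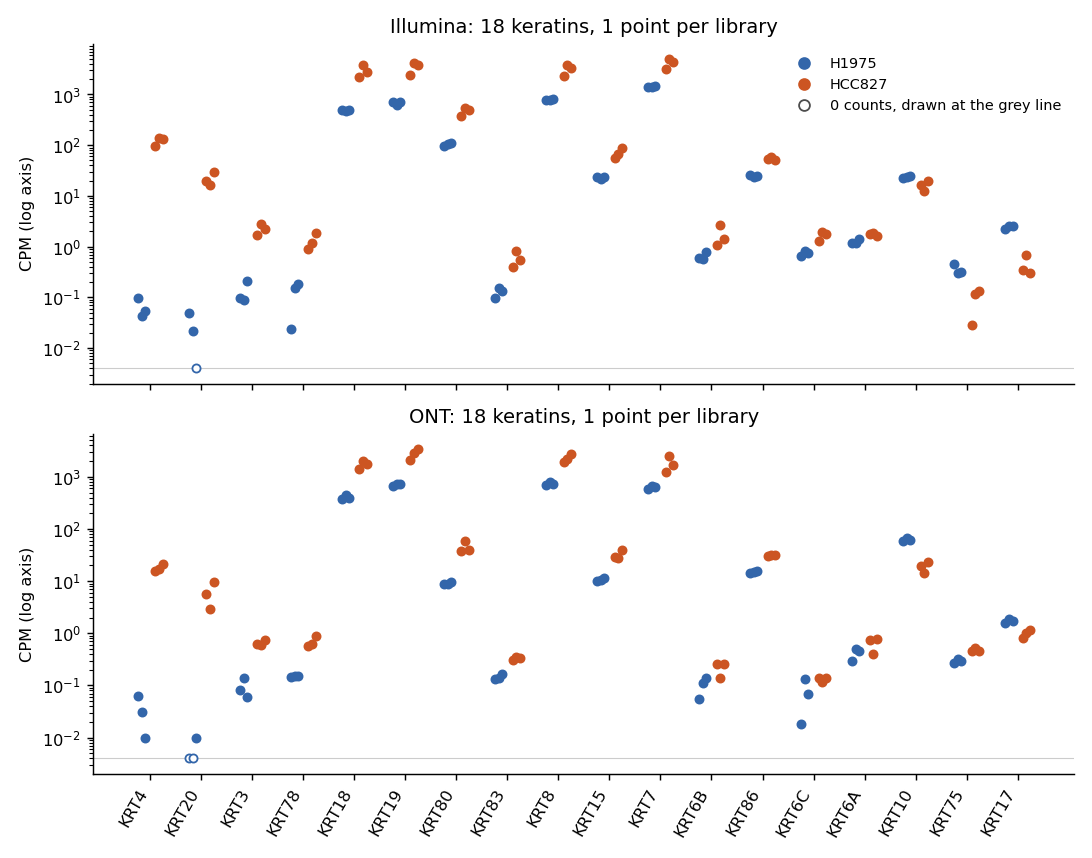
Level of 18 keratins in each Illumina library (upper panel) and ONT library (lower panel), in CPM on a log axis, ordered by Illumina log2 fold, with 1 point per library and libraries at 0 counts drawn as open circles on the grey line. KRT4 and KRT20 stand widest apart between the lines, while KRT10 and KRT17 are those of the 18 with H1975 above HCC827 on both platforms.

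Keratins of simple epithelium made up most of the family's counts. KRT7, KRT8, KRT18 and KRT19 together held 94.7% ± 0.139 of keratin counts in H1975 and 94.4% ± 0.652 in HCC827 in Illumina (mean ± SD, n = 3), and 95.9% ± 0.0553 and 98.1% ± 0.268 in ONT. All 5 genes of the class, KRT20 included, were higher in HCC827 on both platforms, with a median log2 fold of 2.32 in Illumina and 1.94 in ONT. Over all genes 36.1% were called higher in Illumina and 31.1% in ONT. KRT20 had 3 Illumina counts and 1 ONT count over the H1975 libraries and entered the tests through HCC827.

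KRT7 (ENSG00000135480; chromosome 12, 52232520 to 52252186), the type II keratin of ducts and glands, stood at 1398, 1413 and 1495 CPM in the Illumina libraries of H1975 and at 3133, 4915 and 4357 CPM in those of HCC827. Every HCC827 library was above every H1975 library, and the log2 fold was 1.53 ± 0.14 (± SE; adjusted p = 2.75e-07). ONT gave 585, 682 and 639 CPM in H1975 and 1227, 2542 and 1694 CPM in HCC827, a log2 fold of 1.52 ± 0.22 (adjusted p = 0.000143). Replicate 2 was the highest HCC827 library for KRT7 on both platforms. KRT7 overlaps KRT7-AS on the opposite strand, which was given 17, 21, 10, 28, 21 and 61 PacBio counts where KRT7 had 17, 21, 11, 28, 21 and 63. In ONT KRT7-AS held 53026 to 125469 counts per library. The strand setting of the counting was not given in the sources used here. Reads of KRT7 and KRT7-AS therefore cannot be told apart.

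KRT8 (ENSG00000170421; chromosome 12, 52897187 to 52949954), the type II partner of KRT18, stood at 789, 764 and 830.0 CPM in H1975 and at 2294, 3747 and 3268 CPM in HCC827 in Illumina. In ONT it stood at 703, 811 and 716 CPM in H1975 and at 1909, 2210 and 2726 CPM in HCC827. The lines did not overlap on either platform, and the log2 fold was 1.97 ± 0.15 in Illumina (adjusted p = 3.65e-08) and 1.62 ± 0.15 in ONT (adjusted p = 5.04e-06). KRT18 (ENSG00000111057; chromosome 12, 52948871 to 52952906), its type I partner, stood at 488, 476 and 497 CPM in H1975 and at 2259, 3752 and 2746 CPM in HCC827 in Illumina. ONT gave 375, 452 and 388 CPM against 1422, 1985 and 1729 CPM. KRT18 was higher by 2.58 ± 0.16 in Illumina (adjusted p = 3.2e-09) and by 2.08 ± 0.15 in ONT (adjusted p = 9.83e-07). The ends of KRT8 and KRT18 overlap on opposite strands, so reads in that stretch are uncertain.

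KRT19 (ENSG00000171345; chromosome 17, 41523617 to 41528308), a type I keratin of simple epithelia that lacks the usual tail domain, stood at 704, 629 and 724 CPM in H1975 and at 2383, 4128 and 3790 CPM in HCC827 in Illumina. ONT gave 671, 742 and 736 CPM against 2062, 2818 and 3353 CPM. The lines were again apart in every library, with a log2 fold of 2.32 ± 0.17 in Illumina (adjusted p = 2.12e-08) and 1.94 ± 0.17 in ONT (adjusted p = 3.72e-06). KRT19 shared no 75-base window of its transcript with another annotated gene, and no gene overlapped it.

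KRT20 (ENSG00000171431; chromosome 17, 40875889 to 40885242), a type I keratin of gut, bladder and Merkel cells, was nearly absent from H1975, with 2, 1 and 0 Illumina counts and 0, 0 and 1 ONT counts. HCC827 had 683, 139 and 871 counts in Illumina, which is 19.7, 16.2 and 29.5 CPM, and 532, 251 and 673 in ONT, which is 5.73, 2.97 and 9.50 CPM. PacBio counted 0 in each H1975 library and 4, 2 and 2 in HCC827, at least 2.91-fold higher. The count ratio, HCC827 over H1975, was 968 in Illumina (95% Clopper-Pearson interval 331 to 4700, counting error only) and 1822 in ONT (326 to 72005). KRT20 was called higher on both (adjusted p = 3.84e-11 and 8.65e-07). Even in HCC827 it made up 0.275% ± 0.102 of the summed type I level per kilobase in Illumina and 0.106% ± 0.0510 in ONT (mean ± SD, n = 3).

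The sums by type show the balance of the pairs. Because longer transcripts give more Illumina fragments, levels of different genes were compared per kilobase of the canonical transcript. ONT and PacBio counts were divided in the same way, although a long read can stand for a whole transcript. KRT7 and KRT8 have transcripts of 1625 and 1784 bases, and KRT18 and KRT19 of 1413 and 1390. The division therefore raises the ONT and PacBio ratios of type I to type II, and ratios without it were not computed. In Illumina the summed type I level was 0.630 ± 0.0224 of the summed type II level in H1975 and 1.02 ± 0.0374 in HCC827 (mean ± SD, n = 3, no test). In ONT the ratio was 1.02 ± 0.0173 in H1975 and 1.33 ± 0.0998 in HCC827. In both, the 3 libraries of HCC827 lay above those of H1975, while in PacBio the ratios were 0.651, 0.501 and 0.665 in H1975 and 0.475, 0.607 and 0.603 in HCC827 and overlapped. KRT18 over KRT8, the founding pair of simple epithelia, went in Illumina and ONT the same way, from 0.775 ± 0.0164 to 1.19 ± 0.112 in Illumina and from 0.687 ± 0.0145 to 0.959 ± 0.167 in ONT, but was 0.545 ± 0.150 in H1975 and 0.505 ± 0.0836 in HCC827 in PacBio.

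**Figure D2:**
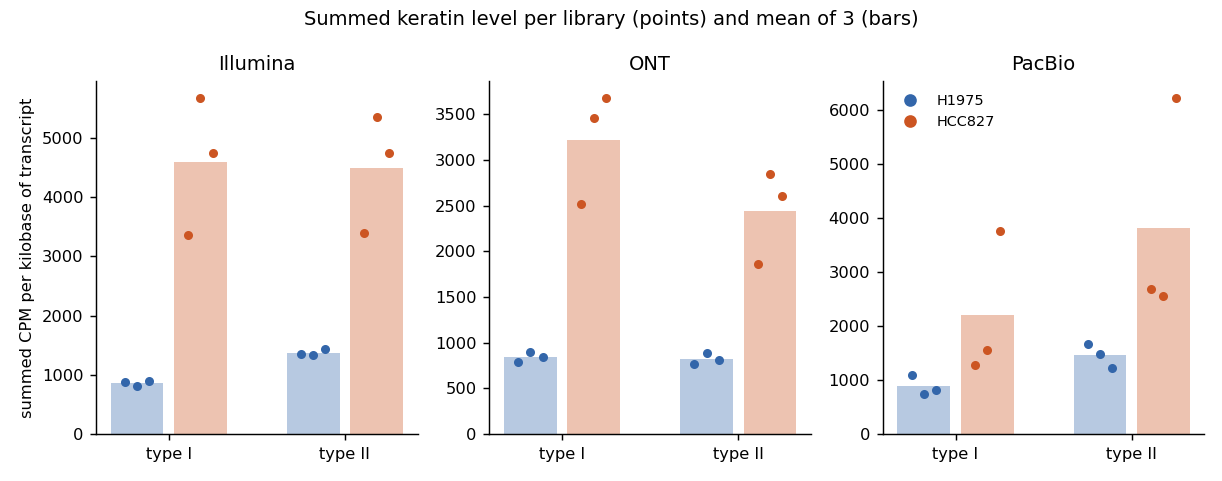
Summed type I and type II keratin level in each library (points) and the mean of 3 (bars), in CPM per kilobase of canonical transcript, for Illumina, ONT and PacBio. In Illumina and ONT every HCC827 library lies above every H1975 library for both types, and in PacBio HCC827 replicate 3 lies far above the other libraries.

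All keratins together held 0.406% ± 0.0140 of gene counts in H1975 and 1.26% ± 0.239 in HCC827 in Illumina, 0.316% ± 0.0230 and 0.724% ± 0.172 in ONT, and 0.167%, 0.128% and 0.119% against 0.248%, 0.242% and 0.550% in the PacBio libraries. The lines did not overlap on any platform. The order of levels per kilobase differed by platform. In Illumina H1975 KRT7 led with 884 ± 32.2 CPM per kilobase, followed by KRT19 (493 ± 35.7), KRT8 (445 ± 18.6) and KRT18 (345 ± 7.49), where KRT19 and KRT8 overlapped in range and the others did not. In Illumina HCC827 the order was KRT7 (2545 ± 561), KRT19 (2470 ± 666), KRT18 (2066 ± 539) and KRT8 (1739 ± 415), and each neighbouring pair overlapped. In ONT KRT19 led per kilobase in both lines, with 515 ± 28.2 CPM per kilobase in H1975 and 1974 ± 467 in HCC827. In H1975 this lead depended on the division by length. Undivided, KRT8 had the higher ONT mean there, 744 CPM against 717 for KRT19, and the ranges overlapped. Per kilobase KRT8 and KRT7 came next in H1975 (417 ± 33.1 and 391 ± 29.9) and overlapped. In HCC827 KRT8 (1279 ± 231), KRT18 (1212 ± 199.5) and KRT7 (1121 ± 410) followed, and each overlapped its neighbour, as KRT19 and KRT8 did.

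Of 7 keratins of internal stratified mucosa and cornea, KRT4, KRT3 and KRT78 were called higher in HCC827 in Illumina and ONT, and KRT13 in ONT. In Illumina these 3 had 8, 16 and 15 counts over the H1975 libraries and entered the test through HCC827, so their number says nothing of the class, and KRT12, KRT13, KRT24 and KRT76 were not tested there. KRT4 (ENSG00000170477; chromosome 12, 52806549 to 52814116), the type II keratin of upper mucosal layers, for instance in oesophagus, had 4, 2 and 2 Illumina counts in H1975 and 3426, 1164 and 3857 in HCC827. This corresponds to 0.0966, 0.0435 and 0.0531 CPM against 98.6, 136 and 130 CPM. The log2 fold of 10.80 ± 0.24 (adjusted p = 4.43e-13) placed KRT4 at rank 6 in level per kilobase among the HCC827 keratins, at 56.8 ± 9.37 CPM per kilobase. ONT counted 7, 3 and 1 in H1975 and 1457, 1441 and 1484 in HCC827, a log2 fold of 8.93 ± 0.33 (adjusted p = 1.09e-08). In PacBio H1975 had 0 counts and HCC827 had 6, 3 and 9, at least 6.55-fold higher. KRT13, the usual type I partner of KRT4, did not reach such levels, with 26, 19 and 27 ONT counts in H1975 and 48, 41 and 55 in HCC827 (log2 fold 1.34 ± 0.29, adjusted p = 0.00186). In Illumina KRT13 had 8 and 27 counts over the 3 libraries of each line and was not tested.

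KRT3 (ENSG00000186442; chromosome 12, 52789685 to 52796117), a corneal keratin next to KRT4, stood at 0.0966, 0.0870 and 0.213 CPM in H1975 and at 1.67, 2.80 and 2.27 CPM in HCC827 in Illumina. The log2 fold was 4.004 ± 0.35 (adjusted p = 1.1e-07) in Illumina and 2.78 ± 0.33 (adjusted p = 3.45e-05) in ONT, where the levels were 0.0809, 0.142 and 0.0596 CPM against 0.625, 0.603 and 0.734 CPM. These were low counts, 16 and 149 in Illumina and 29 and 161 in ONT. KRT78 (ENSG00000170423; chromosome 12, 52837804 to 52849092), another type II gene of that stretch, stood at 0.0241, 0.152 and 0.186 CPM against 0.893, 1.17 and 1.89 CPM in Illumina and at 0.144, 0.152 and 0.149 CPM against 0.582, 0.627 and 0.903 CPM in ONT. Its log2 fold was 3.44 ± 0.46 in Illumina (adjusted p = 1.09e-05) and 2.23 ± 0.28 in ONT (adjusted p = 5.58e-05). KRT12, the corneal partner of KRT3, had 1 and 14 Illumina counts and KRT76 had 6 and 7, and neither was tested.

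KRT80 (ENSG00000167767; chromosome 12, 52168996 to 52192014), a type II keratin found at cell borders in many epithelia, was the strongest member outside the simple set in Illumina. It stood at 98.3, 104 and 111 CPM in H1975 and at 382, 537 and 489 CPM in HCC827, a log2 fold of 2.168 ± 0.13 (adjusted p = 1.95e-09). In ONT it stood at 8.94, 8.71 and 9.50 CPM against 37.1, 59.5 and 39.3 CPM, a log2 fold of 2.32 ± 0.19 (adjusted p = 2.68e-06). The lines were apart on both platforms.

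Basal-layer keratins were mostly low. KRT15 (ENSG00000171346; chromosome 17, 41513745 to 41522529), a type I keratin of basal cells, stood at 23.4, 21.1 and 23.8 CPM in H1975 and at 56.5, 67.3 and 88.1 CPM in HCC827 in Illumina. The log2 fold was 1.63 ± 0.14 (adjusted p = 1.02e-07), and ONT gave 1.59 ± 0.17 (adjusted p = 1.6e-05) from 10.2, 10.7 and 11.3 CPM against 28.8, 28.0 and 40.4 CPM. MIR6510 overlaps KRT15 on the same strand and held 815 to 1832 ONT counts per library, so the counts of KRT15 are uncertain. KRT5 and KRT14, the basal pair, had 14 against 3 and 1 against 2 Illumina counts over the libraries of H1975 and HCC827 and were not tested. ONT counted 31 and 68 for KRT5 (log2 fold 1.45 ± 0.37, adjusted p = 0.00542) and 69 and 243 for KRT14 (2.15 ± 0.30, adjusted p = 0.000107). Both were near the limit of detection in Illumina. For KRT14, 10.2% of the transcript windows occur in other genes, among them KRT16, KRT16P4 and KRT16P5, so its ONT value is uncertain. The 6 KRT16 pseudogenes together held 251, 226 and 275 ONT counts in H1975 and 6306, 4780 and 5645 in HCC827. Their part in the ONT call of KRT14 was not tested.

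Activation keratins, which appear in wounded or hyperproliferative skin, split. KRT6A, KRT6B and KRT6C are near-identical type II copies on chromosome 12, and 26.2%, 34.6% and 42.5% of their 75-base windows occur in another gene, so the separate values are uncertain. In Illumina KRT6A stood at 1.18, 1.20 and 1.41 CPM in H1975 and 1.76, 1.87 and 1.66 CPM in HCC827, KRT6B at 0.603, 0.566 and 0.771 against 1.09, 2.68 and 1.42 CPM, and KRT6C at 0.652, 0.805 and 0.744 against 1.27, 1.98 and 1.76 CPM. All were called higher, by 0.46 ± 0.19 (adjusted p = 0.0404), 1.22 ± 0.30 (adjusted p = 0.00229) and 1.10 ± 0.24 (adjusted p = 0.00072). In ONT KRT6B was called (1.11 ± 0.42, adjusted p = 0.0397), a call lost under 7 of 15 alternatives, whereas KRT6A (0.60 ± 0.31, adjusted p = 0.115) and KRT6C (0.88 ± 0.55, adjusted p = 0.179) were not called. Without ONT HCC827 replicate 2 KRT6A was called (0.87 ± 0.26, adjusted p = 0.0094), and without ONT H1975 replicate 2 KRT6C was (1.60 ± 0.61, adjusted p = 0.047). KRT6A lay between 0.297 and 0.507 CPM in ONT H1975 and between 0.402 and 0.762 in HCC827, KRT6B between 0.0539 and 0.139 and between 0.142 and 0.259, and KRT6C between 0.0180 and 0.132 and between 0.118 and 0.141. Summed over the copies, the log2 fold was 0.89 ± 0.17 in Illumina (adjusted p = 0.000276) and 0.73 ± 0.31 in ONT (adjusted p = 0.0583). The Illumina call of KRT6A was lost under 10 of 15 alternatives, for instance with a replicate block (adjusted p = 0.0865) or DESeq2 (adjusted p = 0.128).

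KRT17 (ENSG00000128422; chromosome 17, 41619442 to 41624842), a type I activation keratin, went the other way from the KRT6 copies. It stood at 2.27, 2.55 and 2.52 CPM in H1975 and at 0.346, 0.699 and 0.305 CPM in HCC827 in Illumina, a log2 fold of -2.69 ± 0.26 (adjusted p = 3.1e-07). In ONT it stood at 1.58, 1.87 and 1.75 CPM against 0.797, 1.00 and 1.16 CPM, a log2 fold of -0.82 ± 0.20 (adjusted p = 0.00428). Every H1975 library was above every HCC827 library on both platforms, but with the counts of 8 KRT17 pseudogenes added the ONT fold became 0.37 ± 0.18, opposite in sign and short of the threshold (adjusted p = 0.0895), and the Illumina fold shrank to -0.79 ± 0.20 (adjusted p = 0.00242).

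KRT10 (ENSG00000186395; chromosome 17, 40818117 to 40822614), the type I keratin of cornifying epidermis, was with KRT17 called lower in HCC827 on both platforms. In Illumina it stood at 22.3, 23.4 and 25.0 CPM in H1975 and at 16.1, 12.2 and 19.5 CPM in HCC827, a log2 fold of -0.52 ± 0.13 (adjusted p = 0.00237). In ONT it stood at 58.2, 67.8 and 61.2 CPM against 19.6, 14.5 and 23.3 CPM, a log2 fold of -1.71 ± 0.18 (adjusted p = 1.46e-05). KRT10-AS1, on the opposite strand, held 110 to 451 Illumina and 1053 to 2112 ONT counts per library and was not called on either platform (adjusted p = 0.0913 and 0.135). KRT1, the usual type II partner of KRT10, had 0 Illumina counts in both lines and 0 against 5 in ONT. Of the other cornifying members, KRT9 of palms and soles was called higher in ONT from 21 and 43 counts (1.36 ± 0.41, adjusted p = 0.0137), and KRT2 and KRT77 were not tested.

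**Figure D3:**
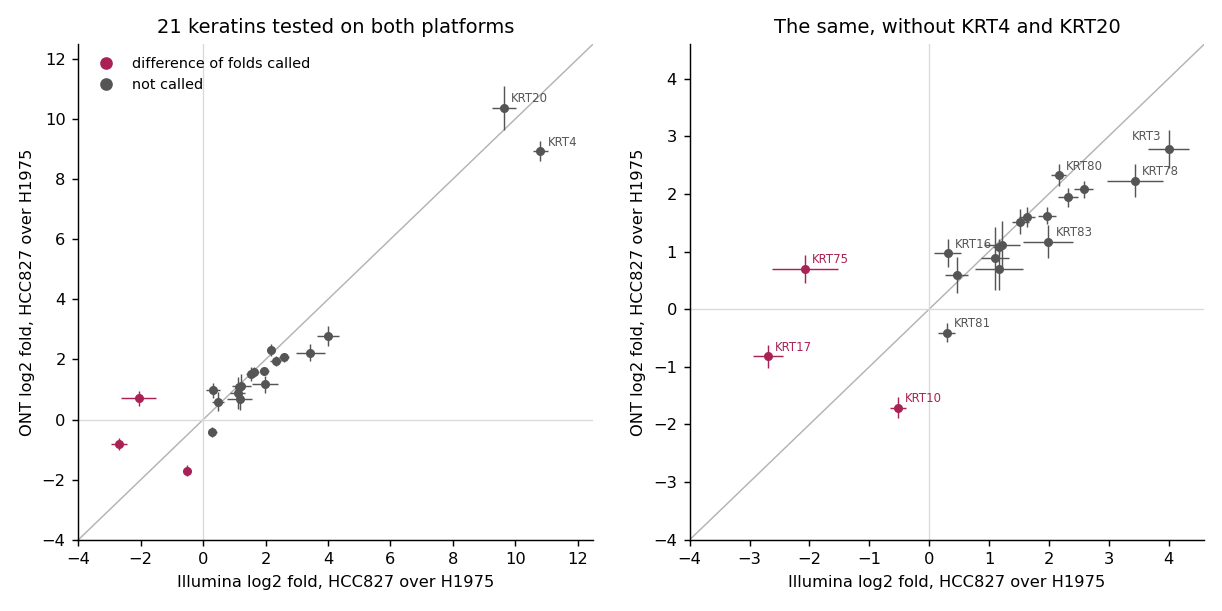
Log2 fold of HCC827 over H1975 in ONT (vertical axis) against Illumina (horizontal axis) for the 21 keratins tested on both platforms, with standard errors as bars, the line of equal folds in grey and the members whose folds differed between the platforms in red. The right panel repeats the left without KRT4 and KRT20, and KRT10, KRT17 and KRT75 lie off the line.

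The platforms were then compared for the folds themselves, with an interaction term in 1 fit over the 12 libraries of both platforms. Between ONT and Illumina 28 keratins were tested and the difference was called for 3, 2 of them higher and 1 lower in ONT, against 7.16% of all genes (5.03% higher and 2.13% lower). The ONT fold of KRT10 minus its Illumina fold was -1.01 ± 0.24 on the log2 scale (adjusted p = 0.0122). For KRT17 it was 2.02 ± 0.34 (adjusted p = 0.000697), and for KRT75 2.93 ± 0.57 (adjusted p = 0.00256). With the RNA sample as a block the same 3 were called (adjusted p = 0.000132, 0.000831 and 0.00705). Without Illumina HCC827 replicate 3 the call of KRT10 was lost (-0.83 ± 0.24, adjusted p = 0.0599). RNA input, library kit and sequencer change together between the platforms and cannot be told apart.

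KRT75 (ENSG00000170454; chromosome 12, 52424070 to 52434371), a type II keratin of the hair follicle, was the member called in opposite directions. Illumina counted 19, 14 and 12 in H1975 and 1, 1 and 4 in HCC827, which is 0.459, 0.305 and 0.319 CPM against 0.0288, 0.117 and 0.135 CPM. The log2 fold was -2.07 ± 0.55 (adjusted p = 0.00343), -1.42 without Illumina HCC827 replicate 1 (adjusted p = 0.0464) and -2.86 without replicate 3 (adjusted p = 0.00439). The ONT minus Illumina difference was 2.31 and 3.71 without these libraries. ONT counted 30, 32 and 29 against 42, 45 and 32, which is 0.270, 0.324 and 0.288 CPM against 0.453, 0.532 and 0.452 CPM, a log2 fold of 0.70 ± 0.24 (adjusted p = 0.0265). The lines did not overlap on either platform. The ONT call was lost under 7 of 15 alternatives, among them a replicate block (adjusted p = 0.0612) and each H1975 library left out. An unnamed gene on the opposite strand, ENSG00000257500, had 16, 16 and 10 against 4, 1 and 6 Illumina counts and 30, 27 and 27 against 32, 40 and 28 ONT counts.

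KRT72, a type II root sheath keratin, is named here after its values were seen. It had 169, 233 and 65 Illumina counts in H1975 and 712, 28 and 1048 in HCC827, which is 4.08, 5.07 and 1.73 CPM against 20.5, 3.26 and 35.5 CPM. HCC827 replicate 2 lay within the range of H1975. The log2 fold of 2.54 ± 0.86 missed the threshold (adjusted p = 0.0527), and without HCC827 replicate 2 it was 2.94 ± 0.37 (adjusted p = 0.000166). ONT counted 7, 8 and 7 against 11, 9 and 9, too few for a test.

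Hair and nail keratins had 4 of 17 members tested in Illumina, with 3 higher, and 8 tested in ONT, with 2 higher and 1 lower, the latter no more than the 31.1% and 31.6% over all genes. KRT86 (ENSG00000170442; chromosome 12, 52249300 to 52309163), a type II hair keratin, stood at 25.3, 23.7 and 24.6 CPM in H1975 and at 54.0, 59.2 and 52.2 CPM in HCC827 in Illumina, a log2 fold of 1.16 ± 0.09 (adjusted p = 4.96e-08). The ONT levels were 14.0, 15.1 and 15.4 CPM against 30.8, 31.6 and 31.9 CPM, a log2 fold of 1.08 ± 0.13 (adjusted p = 3.51e-05). KRT86 shares 32.7% of its windows with other genes, mainly its copies KRT81 and KRT87P, and overlaps several genes. KRT81 was not called in Illumina (0.29 ± 0.14, adjusted p = 0.0799) and lower in ONT, with a log2 fold of -0.41 ± 0.16 (adjusted p = 0.0445), a call lost under 9 of 15 alternatives. With library totals alone the Illumina fold of KRT81 was -0.0586. Summed over KRT81, KRT86 and KRT87P, the log2 fold was 1.20 ± 0.09 in Illumina (adjusted p = 3.75e-08) and 1.05 ± 0.12 in ONT (adjusted p = 3.59e-05).

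KRT83 (ENSG00000170523; chromosome 12, 52314301 to 52321398), another type II hair keratin, stood at 0.0966, 0.152 and 0.133 CPM against 0.403, 0.816 and 0.541 CPM in Illumina (1.99 ± 0.42, adjusted p = 0.000592). In ONT it stood at 0.135, 0.142 and 0.169 CPM against 0.312, 0.355 and 0.339 CPM (1.17 ± 0.29, adjusted p = 0.00443). KRT85 was called in Illumina alone, from 22 and 29 counts (1.17 ± 0.40, adjusted p = 0.0162). KRT32, KRT35, KRT82 and KRT84 were tested in ONT and not called, with log2 folds of -0.89, 1.08, 0.72 and 0.52. Of the remaining classes, KRT79, a hair follicle and sebaceous duct keratin, was higher in ONT (1.49 ± 0.37, adjusted p = 0.00457). KRT222, a type I-like gene, had 15, 13 and 16 ONT counts in H1975 and 1, 0 and 0 in HCC827, an H1975 over HCC827 ratio of 35.2 (interval 5.99 to 1420). In Illumina it had 9, 10 and 8 counts and 0 in each library of HCC827, at least 5.25-fold higher in H1975. KRT222 overlaps a gene on the same strand, ENSG00000264058, and is uncertain.

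Promoter stretches are shown for 4 members, KRT4 and KRT20 with the largest folds, KRT3 beside KRT4, and KRT10 as a gene lower in HCC827. RefSeq (GRCh38.p14) gave promoter entries for 34 of the 55 members, 38 entries of 300 bases, from 250 before to 50 after the start; KRT7, KRT17, KRT18, KRT19 and KRT80 had none. The last 100 bases before the start are printed on the gene's strand, which is the minus strand in all 4, with any TATAAA in capitals. They lie at chr12:52814117-52814216 for KRT4, chr17:40885243-40885342 for KRT20, chr12:52796118-52796217 for KRT3 and chr17:40822615-40822714 for KRT10.
KRT4: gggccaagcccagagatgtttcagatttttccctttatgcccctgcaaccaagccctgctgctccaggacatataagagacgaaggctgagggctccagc
KRT20: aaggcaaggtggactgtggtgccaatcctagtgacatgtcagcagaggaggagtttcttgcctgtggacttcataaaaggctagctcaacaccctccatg
KRT3: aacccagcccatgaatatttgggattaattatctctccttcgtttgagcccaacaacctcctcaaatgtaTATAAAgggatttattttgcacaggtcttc
KRT10: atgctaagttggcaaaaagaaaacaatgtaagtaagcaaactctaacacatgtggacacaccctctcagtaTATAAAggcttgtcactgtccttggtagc
TATAAA began 30 bases before the start in KRT3 and 29 before it in KRT10, and this exact word was not in the windows of KRT4 and KRT20. Near matches were not searched, and 29 bases before the start KRT4 has tataag and KRT20 has cataaa. On either strand TATAAA was in 21 of 38 keratin entries (55.3%) against 11.5% of 35116 entries of all genes. The Sp1-type GGGCGG was in 6 (15.8%) against 45.0%, and the AP-1-type TGANTCA in 0 against 7.71%. A part of these motifs in the line differences was not tested.

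PacBio tested 5 keratins and called 0 of them with edgeR, against 22.9% of 901 genes (11.4% higher). Of these 4 had an unadjusted p below 0.05, DESeq2 called 2 (KRT7 and KRT8) and limma-voom 0. Over the 901 genes 326 had such a p, DESeq2 called 56 higher and 77 lower, and limma-voom 48 and 40. KRT7 had 17, 21 and 11 counts in H1975 and 28, 21 and 63 in HCC827 (log2 fold 1.38 ± 0.50, adjusted p = 0.0733). KRT8 had 22, 16 and 17 against 34, 25 and 55 (1.21 ± 0.40, adjusted p = 0.0572). KRT18 had 11, 8 and 5 against 11, 11 and 24 (1.07 ± 0.50, adjusted p = 0.149), and KRT19 had 10, 8 and 10 against 14, 13 and 37 (1.35 ± 0.52, adjusted p = 0.0882). In these 4 genes HCC827 replicate 3 was the highest library. KRT80 had 6, 13 and 13 against 29, 19 and 11 (0.99 ± 0.34, adjusted p = 0.0609), and there replicate 3 was the lowest of HCC827. Without that library 2 keratins were called, KRT8 (0.73 ± 0.25, adjusted p = 0.0411) and KRT80 (1.21 ± 0.27, adjusted p = 0.00391), while the folds of KRT7, KRT18 and KRT19 were 0.63 ± 0.26, 0.50 ± 0.36 and 0.57 ± 0.28. In that fit 178 of 1325 genes were called higher and 158 lower. Of the 5 tested, the lines did not overlap in CPM for 4 with HCC827 above and for 0 with H1975 above, against 22.3% of all genes each way. The folds of PacBio and Illumina differed for 0 of 13 keratins tested with edgeR, against 0.0208% of all genes (0.00521% higher and 0.0156% lower). Those of PacBio and ONT differed for 0 of 21, against 0.0205% (0.00818% higher and 0.0123% lower). Of the 21, KRT3, KRT6A, KRT13, KRT14, KRT16, KRT75, KRT78, KRT81, KRT83 and KRT84 had 0 counts in every PacBio library. So had KRT72 and KRT81 of the 13. Such members have no PacBio fold, so the edgeR test could not show a difference for them. At an unadjusted p below 0.05 the numbers were 4 and 1, with DESeq2 2 and 1, and with limma-voom 4 and 9. Over all genes 1021 of 19189 and 996 of 24440 had such a p. Between PacBio and Illumina DESeq2 called 125 genes higher and 98 lower, and limma-voom 1675 and 2215. Between PacBio and ONT DESeq2 called 129 and 97, and limma-voom 3537 and 2184. With the RNA sample as a block KRT80 was called between PacBio and ONT (-1.25, adjusted p = 0.0495).

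**Figure D4:**
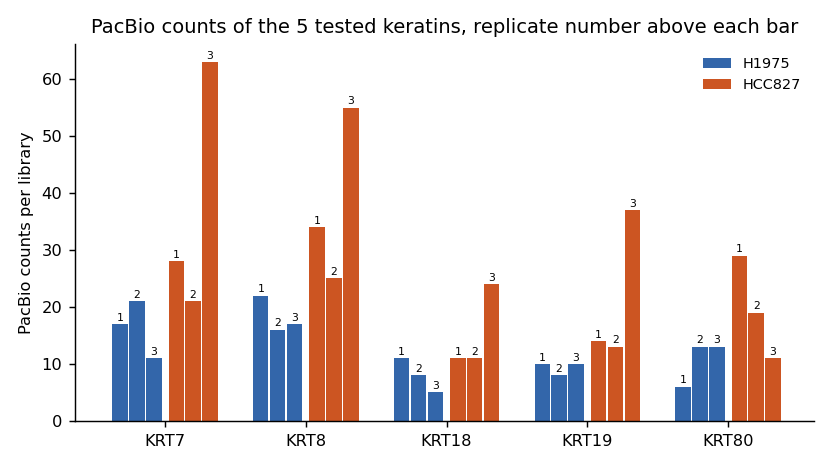
PacBio counts of KRT7, KRT8, KRT18, KRT19 and KRT80 in each library, with the replicate number above each bar. HCC827 replicate 3 has the highest count for all but KRT80, for which HCC827 replicate 1 leads with 29.

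Processed pseudogenes of KRT8 and KRT18 are numerous in the genome, and reads of a parent can be assigned to them. The counts of 51 KRT8 pseudogenes summed to 45.2% of the KRT8 count in H1975 and 41.4% in HCC827 in Illumina, and to 47.7% and 40.4% in ONT. For 67 KRT18 pseudogenes the shares were 27.3% and 27.1% in Illumina and 43.9% and 71.2% in ONT, where HCC827 replicate 2 alone held 157204 such counts against 82893 and 60547 in the other two. Adding them to the parent changed the KRT18 fold to 2.59 ± 0.16 in Illumina and 2.33 ± 0.18 in ONT, and the KRT8 fold to 1.92 ± 0.15 and 1.55 ± 0.15. All of these were called.

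KRT16, the type I partner of the KRT6 copies, was not called in Illumina (0.31 ± 0.23, adjusted p = 0.22, and -0.0338 with library totals alone) and was higher in ONT (0.97 ± 0.25, adjusted p = 0.00591) from 68, 77 and 49 counts against 89, 130 and 85. Its 6 pseudogenes held more counts than the gene. Of these KRT16P1 (ENSG00000214856; chromosome 17, 18439985 to 18442734), which lies outside the keratin cluster, had 4, 9 and 9 Illumina counts in H1975 and 1846, 320 and 1722 in HCC827, a log2 fold of 8.13 ± 0.24 (adjusted p = 2.78e-12). ONT counted 77, 71 and 86 against 2139, 1651 and 1914 (4.94 ± 0.20, adjusted p = 1.59e-08), and PacBio 0 in each H1975 library against 8, 3 and 5. KRT16P3 (chromosome 17, 20501669 to 20504283) had nearly the same ONT counts as KRT16P1, 74, 66 and 79 against 2125, 1629 and 1899, but 7, 8 and 5 against 534, 90 and 452 in Illumina and 0 in PacBio. With the pseudogenes added KRT16 was higher by 3.54 ± 0.15 in Illumina and 4.51 ± 0.18 in ONT (adjusted p = 7e-11 and 1.37e-08). KRT16P1 and KRT16P3 are not members and were named after their values were seen.

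**Figure D5:**
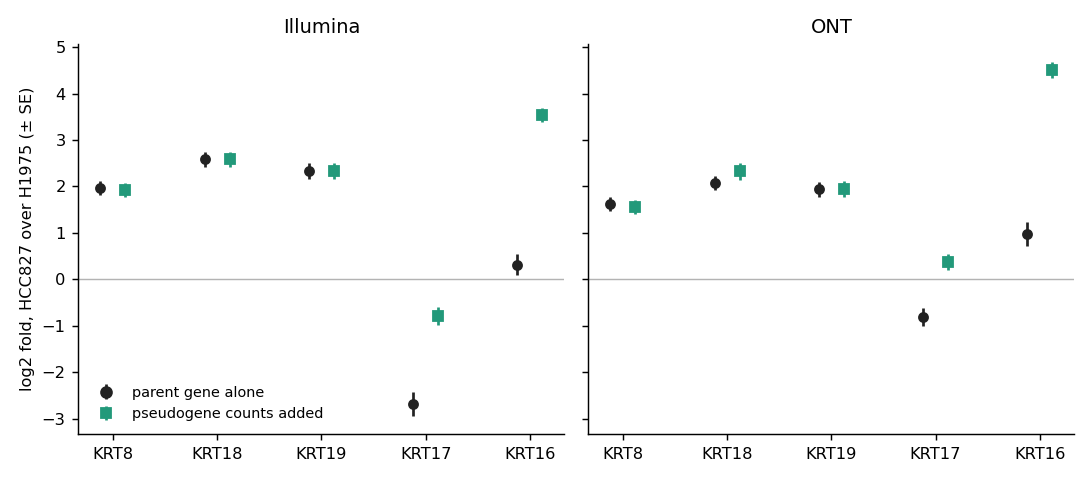
Log2 fold of HCC827 over H1975 (± SE) for KRT8, KRT18, KRT19, KRT17 and KRT16 alone (circles) and with the counts of their pseudogenes added (squares), in Illumina and ONT. KRT8, KRT18 and KRT19 barely move, KRT17 crosses 0 in ONT, and KRT16 rises to 3.54 in Illumina and 4.51 in ONT.

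Of 15 other intermediate filament genes 10 were tested in Illumina, with 1 higher and 6 lower, against 36.1% and 38.0% of all genes, and a median log2 fold of -0.81. ONT had 1 higher and 6 lower of 10, against 31.1% and 31.6%, with a median of -0.78, but the genes were in part others. The higher gene was LMNB1 in Illumina (log2 fold 0.61) and BFSP1 in ONT (1.00), and BFSP1 was called lower in Illumina (-0.70). PRPH was called lower in ONT (-3.075) and was not called in Illumina (1.52). VIM, the filament of mesenchymal cells, had a log2 fold of -4.33 ± 0.15 in Illumina (adjusted p = 1.13e-11) and -4.68 ± 0.14 in ONT (adjusted p = 4.17e-09), and 30 against 4 PacBio counts. NES, a filament of progenitor cells, stood at -3.61 ± 0.14 and -3.37 ± 0.27 (adjusted p = 3.57e-11 and 2.21e-06). SYNM, which binds VIM, stood at -1.53 ± 0.13 and -1.07 ± 0.24 (adjusted p = 6.77e-08 and 0.00245).

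Of 12 genes for proteins that anchor or bind keratin filaments 11 were tested in both Illumina and ONT, with 5 higher and 3 lower on each and medians of 0.11 and 0.46. These counts were near the shares over all genes, 36.1% and 38.0% in Illumina and 31.1% and 31.6% in ONT. EVPL, a desmosomal plakin, was higher by 1.53 ± 0.16 in Illumina (adjusted p = 9.33e-07), and JUP, which links desmosomal cadherins to the filament network, by 1.45 ± 0.12 (adjusted p = 9.29e-08). EPPK1, a plakin that bundles keratin, had a log2 fold of -2.06 ± 0.22 (adjusted p = 2.8e-06). Genes of the cornified envelope, the protein shell of dead surface cells, had 5 of 10 tested members higher and 3 lower in Illumina (median 0.98) and 4 and 3 of 10 in ONT (median 0.32), again near those shares. FLG, which bundles keratin in epidermis, was at 0 Illumina counts in HCC827 against 1056 in H1975, which is at least 205-fold higher in H1975. SPRR3 of mucosal envelopes had 1 and 122 counts, a ratio of 209 (interval 36.9 to 8335), and the protease inhibitor CSTA had a log2 fold of -5.89 ± 0.29 (adjusted p = 3.58e-10). These lists were counted and not tested as sets.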

How the data were processed

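The deposited values were whole-number counts per gene without normalization, 1 file per library. The authors used minimap2 2.17 and featureCounts with GRCh38, per the submitters' processing notes. Which tool served which platform, the annotation release, the strand setting and the treatment of multi-mapping reads were not given in the sources used here. A repeat run is named, per the file headers, for HCC827 replicate 3 in Illumina and poly(A) for HCC827 replicate 3 in PacBio, and for no other library. Identifiers were matched without version to GENCODE release 44 (60357 of 60617 in Illumina, 58207 of 58676 in the long-read files), and 76 sequins were left out of the library sizes.

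Each platform was fitted alone with edgeR 4.0.16 under R 4.3.3, by the two-sided quasi-likelihood test with robust estimation after TMM scaling and filterByExpr. Benjamini-Hochberg adjustment ran over all genes. Platforms were compared by an interaction term over 12 libraries. Repeats used DESeq2 1.42.0, limma-voom 3.58.1, other scalings and filters, thinning to the smallest library, a replicate block and each library left out. Those with pseudogene counts added and with near-identical copies summed were chosen after seeing the data. The fits were tested on simulated data. For a line at 0 counts, 3 counts over its libraries served as the floor, and count ratios have 95% Clopper-Pearson intervals. PCR reads are not independent molecules, so both cover counting error only. Windows of 75 bases of each canonical transcript were looked up in the transcripts of all other genes.

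Values per library are given for KRT7, KRT8, KRT18, KRT19 and KRT20 and for members called on at least 2 platforms or called in Illumina with 100 or more counts, 18 in all. From each other list the 3 called members with the largest Illumina folds are named. LMNB1, BFSP1 and PRPH were named after their values were seen, because their calls differed between Illumina and ONT. Members and lists were chosen with earlier results of these data known. P-values measure only the spread between these samples, grown independently from 1 line each.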

Additional observations from a re-analysis of the deposited data

Results flagged for a closer look

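The cell line folds of 3 keratins differed between ONT and Illumina. The ONT fold minus the Illumina fold was -1.01 for KRT10, 2.02 for KRT17 and 2.93 for KRT75 on the log2 scale (edgeR adjusted p = 0.0122, 0.000697 and 0.00256). In KRT10 the direction was the same on both platforms and the ONT difference was larger, in KRT17 it was the same and smaller in ONT, and in KRT75 the signs were opposite. The same kind of difference was called for 7.16% of all genes. Groups of 3 libraries are too small for a test of single outlying libraries.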

How the results depend on the processing

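The alternatives gave 895 repeats of counts, sums and single-gene values together. Of the counts and sums 142 stayed near the main value, 9 counts were larger and 2 sums moved. Staying near meant within a set factor for counts, and within the spread between libraries for sums. Of the single-gene values 690 kept their direction and their side of the threshold. A further 36 lost a call, 13 gained a call and 3 changed sign. Illumina called 12 to 18 keratins higher and 2 to 4 lower over all alternatives, and ONT 15 to 22 and 3 to 5. Leaving out 1 library gave 0 to 2 keratins called higher in PacBio, 2 without HCC827 replicate 3. Without the low-count filter PacBio called 5 higher and the ONT and Illumina folds differed for 5. DESeq2 called 2 higher in PacBio, 2 differences between PacBio and Illumina and 1 between PacBio and ONT, and limma-voom 4 and 9. The numbers over all genes stand beside these counts in the PacBio results. The log2 ratio of the summed keratin level was 1.63 in place of 2.00 in Illumina and 1.19 in place of 1.74 in ONT when scaled to all gene counts. Opposite signs came with pseudogenes added for KRT17 in ONT (0.37) and with library totals alone for KRT16 (-0.0338) and KRT81 (-0.0586) in Illumina. The causes were not tested. Replicate numbers did not pair the lines: deviations of same-numbered libraries correlated at -0.0750, -0.00989 and 0.110 for Illumina, 0.0185, -0.139 and -0.0773 for ONT and -0.536, 0.238 and -0.530 for PacBio. With a replicate block Illumina called 15 keratins higher and 3 lower, ONT 18 and 3 and PacBio 0, and the folds of PacBio and ONT differed for 1. PacBio depth limited the test to 5 members.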
